A study of Homo sapiens with 18 samples.

Results

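Goblet cells are the mucus-making cells of the intestinal epithelium. The genes described here are 10 genes of their secretory program: AGR2, AGR3, TFF1, TFF3, MUC2, SPINK4, REG4 and FCGBP, which encode secreted proteins or proteins of the secretory pathway, and SPDEF and ATOH1, which encode transcription factors of the lineage. They were chosen by name, and for each the brightest probe set, by mean over the lines, was used among those annotated to that gene alone. All 10 were measured, on 17 probe sets, among 19774 measured genes. Expression had been measured in 18 lines labelled CRC (colorectal cancer), with 1 array of biotin-labelled total RNA for each line. DMEM/F-12 was the medium of CAR1, CL40, HT55, HUTU80, LS180, OUMS23, RKO, SW1463, SW48 and SW948. RPMI-1640 with added glucose and sodium pyruvate was that of COLO320HSR, HCT116, KM12, LS513, MDST8, NCIH716, RCM1 and SNUC1. All media held glutamine, HEPES, fetal bovine serum, penicillin and streptomycin, and no line was treated. A cell line is a culture propagated from 1 tumour, and each was sampled once, so no value has a replicate error. HUTU80 is elsewhere known as a line of the duodenum.

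In the intestinal crypt, ATOH1 commits a progenitor to the secretory lineage, and SPDEF acts further along to drive the maturation of goblet and Paneth cells. Mature goblet cells fold the gel-forming mucin MUC2 in the endoplasmic reticulum with the help of AGR2, a protein disulfide isomerase, and release it with trefoil peptides and with FCGBP, a mucus protein that binds MUC2. Mucinous colorectal tumours are known for strong expression of several of these genes.

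Values are deposited log2 intensities, on which 1 unit is a doubling of signal. A background was read from 77 probe sets of genes restricted to other tissues, such as lens, retina and muscle. The 95th percentile of their values was 3.89 and the 99th was 4.94. A value under 3.89 was read as not detected and one between 3.89 and 4.94 as near background, and the order of such values carries no meaning. Of the 77 probe sets, 26 exceeded 3.89 and 10 exceeded 4.94 in some line. Probe sets differ in brightness, so levels were compared between lines within a gene and not between genes. Array medians lay between 3.65 and 3.69. The submitters' processing brings arrays to a like distribution, so these medians do not compare total signal between lines. Leukocyte markers were low, with 2 of 10 above 4.94 in some line (LYZ, which Paneth cells also make, and PTPRC). Of 11 measured markers of gut epithelium, 9 to 11 exceeded 4.94 in 10 lines and 1 to 6 in the other 8. CDH1, the adhesion protein of epithelia, was above 4.94 in 13 lines, and in 5 lines, NCIH716 with 3.67 among them, it was not.

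The windows of 250 bases before the annotated start are shown for 4 of the products, AGR2 and its neighbour AGR3, the mucin MUC2 and the inhibitor SPINK4. AGR2 and MUC2 are the products found in the most and the fewest lines, AGR3 adjoins AGR2, and SPINK4 holds the 1 ETS match. Of the 10 genes, 8 had an entry in the RefSeq table of assembly GRCh38.p14 and TFF1 and TFF3 had none. Each is given 5′ to 3′ on the gene's own strand, and capitals mark matches, on either strand, to 5 motifs. The core promoter motif was TATAAA. The E-boxes, the kind of site that factors of the ATOH1 family bind, were CAGCTG and also CAGATG. For the ETS family, to which SPDEF belongs, the motif was CCGGAT. For the forkhead family of the FOXA factors the motif was TGTTTNC, where N is any base.
AGR2, chr7:16805000-16805249, minus strand: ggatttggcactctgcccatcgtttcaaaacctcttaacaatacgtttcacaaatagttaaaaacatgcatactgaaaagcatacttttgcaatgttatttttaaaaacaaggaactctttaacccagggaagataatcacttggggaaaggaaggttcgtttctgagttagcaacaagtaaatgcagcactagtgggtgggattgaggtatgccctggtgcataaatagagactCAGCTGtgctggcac
AGR3, chr7:16881984-16882233, minus strand: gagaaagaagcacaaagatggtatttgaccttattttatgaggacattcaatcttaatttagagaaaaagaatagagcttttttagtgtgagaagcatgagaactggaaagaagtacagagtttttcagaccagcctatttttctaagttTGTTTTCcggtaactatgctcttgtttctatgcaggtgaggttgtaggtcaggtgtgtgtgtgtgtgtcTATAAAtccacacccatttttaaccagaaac
MUC2, chr11:1074624-1074873, plus strand: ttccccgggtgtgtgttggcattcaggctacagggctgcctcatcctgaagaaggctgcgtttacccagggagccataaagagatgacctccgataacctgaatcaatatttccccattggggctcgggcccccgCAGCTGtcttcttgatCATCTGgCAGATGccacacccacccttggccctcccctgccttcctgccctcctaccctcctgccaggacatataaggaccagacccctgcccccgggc
SPINK4, chr9:33239917-33240166, plus strand: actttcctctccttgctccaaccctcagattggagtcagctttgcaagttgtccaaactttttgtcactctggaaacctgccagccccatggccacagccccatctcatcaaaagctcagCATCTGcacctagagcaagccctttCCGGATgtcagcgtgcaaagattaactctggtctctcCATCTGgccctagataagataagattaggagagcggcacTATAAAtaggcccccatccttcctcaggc

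Among 35116 promoter windows of the same length, TATAAA was in 10.7%, CAGCTG in 14%, CAGATG in 12.2%, CCGGAT in 5.85% and TGTTTNC in 15.5%. The AGR2 window held 1 match, a CAGCTG whose first base is 15 bases before the start. The AGR3 window shared none of its motifs with AGR2 and held TATAAA 31 bases before the start and, 100 bases before it, TGTTTTC. In MUC2, a CAGCTG lay 115 bases before the start and CAGATG lay 99 bases before it on the opposite strand and 92 bases before it on the gene's strand. SPINK4 had CAGATG on the opposite strand at 130 and 68 bases, the 1 CCGGAT of the 8 windows at 105 bases and a TATAAA at 29 bases. REG4 held TATAAA at 31 bases and, at 219 bases, TGTTTGC. The windows of FCGBP, SPDEF and ATOH1 held no match. These motifs do not overlap each other, and a match is a description of letters and not of binding.

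The products were high in as many as 10 lines and at background in the rest. AGR2 and TFF3 exceeded 4.94 in the same 10 lines, AGR3 and TFF1 in 9, SPINK4 in 8, REG4 in 7, FCGBP in 5 and MUC2 in 4. These sets were nested: each line with a product later in that order also had every earlier product. LS180, CL40, LS513 and SW948 had all 8 products above 4.94, NCIH716 had 7, KM12 and SW1463 had 6, SNUC1 had 5, HT55 had 4 and RCM1 had 2. In HCT116, RKO, SW48, MDST8, COLO320HSR, CAR1, HUTU80 and OUMS23 no product exceeded 4.94. The order of nesting depends on the level used, and at a fixed level of 6 it was broken in 4 lines (SNUC1, HT55, CL40 and NCIH716). It rests also on how bright each probe set is, and a dim probe set passes a given level in fewer lines. With the mean of each gene's probe sets the order was broken in 1 line, NCIH716, where REG4 passed 4.94 on 1 of 3 probe sets.

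**Figure D1:**
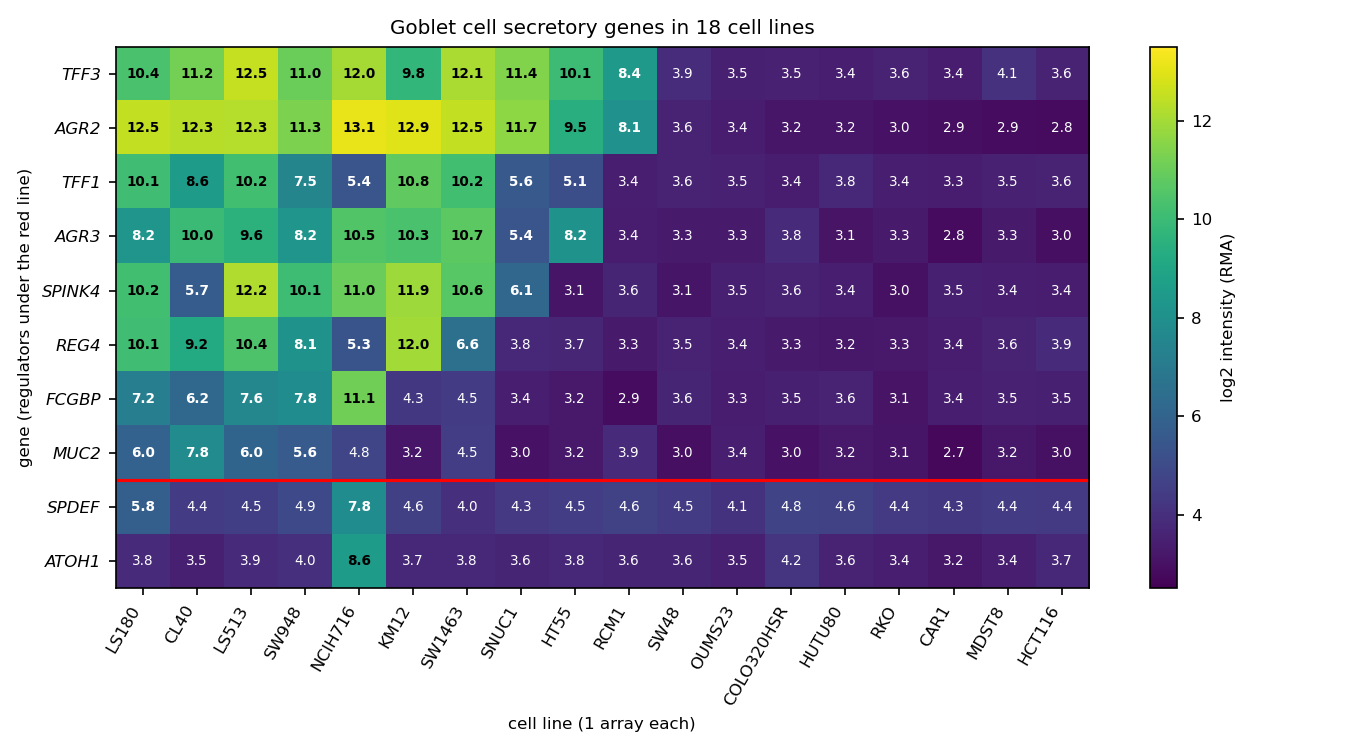
Log2 intensity of the 10 genes (rows, with the regulators SPDEF and ATOH1 under the red line) in 18 cell lines (columns, 1 array each, ordered by how many products exceeded 4.94). Bold values exceed 4.94, and the AGR2 row runs from 2.81 in HCT116 to 13.12 in NCIH716.

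All 10 genes ranged over at least 3 log2 units, against 32.2% of the 15211 genes above 3.89 in at least 1 line. Their median SD over the lines was 2.95, against 0.56 for those 15211 genes. AGR2 had the largest SD of them all, TFF3 ranked 10, SPINK4 19, AGR3 57, REG4 90, TFF1 125 and FCGBP 471. MUC2 ranked 2015, ATOH1 2828 and SPDEF 4361. The genes had been listed with earlier results of these data known, so their spread is given as a description.

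AGR2, the disulfide isomerase that mucin folding needs, ran from 2.81 in HCT116 through a median of 8.76 to 13.12 in NCIH716. The lines fell into 2 clusters: 8 lines between 2.81 and 3.57, and 10 lines between 8.06 (RCM1) and 13.12, with none between. In the upper cluster the values were 13.12 in NCIH716, 12.95 in KM12, 12.50 in SW1463, 12.47 in LS180, 12.30 in CL40, 12.28 in LS513, 11.65 in SNUC1, 11.31 in SW948, 9.46 in HT55 and 8.06 in RCM1. A second probe set for AGR2 correlated with the first at r = 0.94 over 18 lines, but it read RCM1 at 3.54 and so exceeded 4.94 in 9 lines. The call of AGR2 in RCM1 thus rests on 1 of its 2 probe sets.

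AGR3, a close relative of AGR2 encoded next to it, ran from 2.81 (CAR1) through a median of 4.59 to 10.73 (SW1463). It exceeded 4.94 in 9 of the 10 lines with AGR2 and in no other line. RCM1 was the line with AGR2 at 8.06 and AGR3 at 3.37, under background. SNUC1 had AGR2 at 11.65 and AGR3 at 5.39, the lowest AGR3 of the 9 lines, while in HT55 the AGR3 value was 8.15. The 2 genes therefore shared their lines, but their levels among those lines were not in the same order.

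The wider family of disulfide isomerases of the endoplasmic reticulum did not have this pattern. Of 19 listed relatives 18 were measured, and 15 exceeded 4.94 in every line. The median SD of the 18 was 0.42, and 4 of the 18 ranged over at least 3 log2 units. For the 15211 genes above 3.89 in at least 1 line, the median SD was 0.56 and 32.2% had such a range. Of those genes, 8313 were above 3.89 in every line, and the share above 4.94 in every line was not taken. Signal in every line was therefore common among all genes and is not given as a trait of this family. P4HB, the founding member of the family, ran from 10.66 to 11.84, PDIA3 from 11.11 to 12.07 and PDIA6 from 10.91 to 12.02. TXNDC12, a relative of AGR2 and AGR3 in the same family, ran from 9.18 (OUMS23) to 10.40 (NCIH716). The 4 with the largest SD were ERP27, at 3.13 in RCM1 and 9.99 in HT55 and above 4.94 in 7 lines, then TMX4, TXNDC16 and PDIA5, each above 4.94 in all 18.

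**Figure D2:**
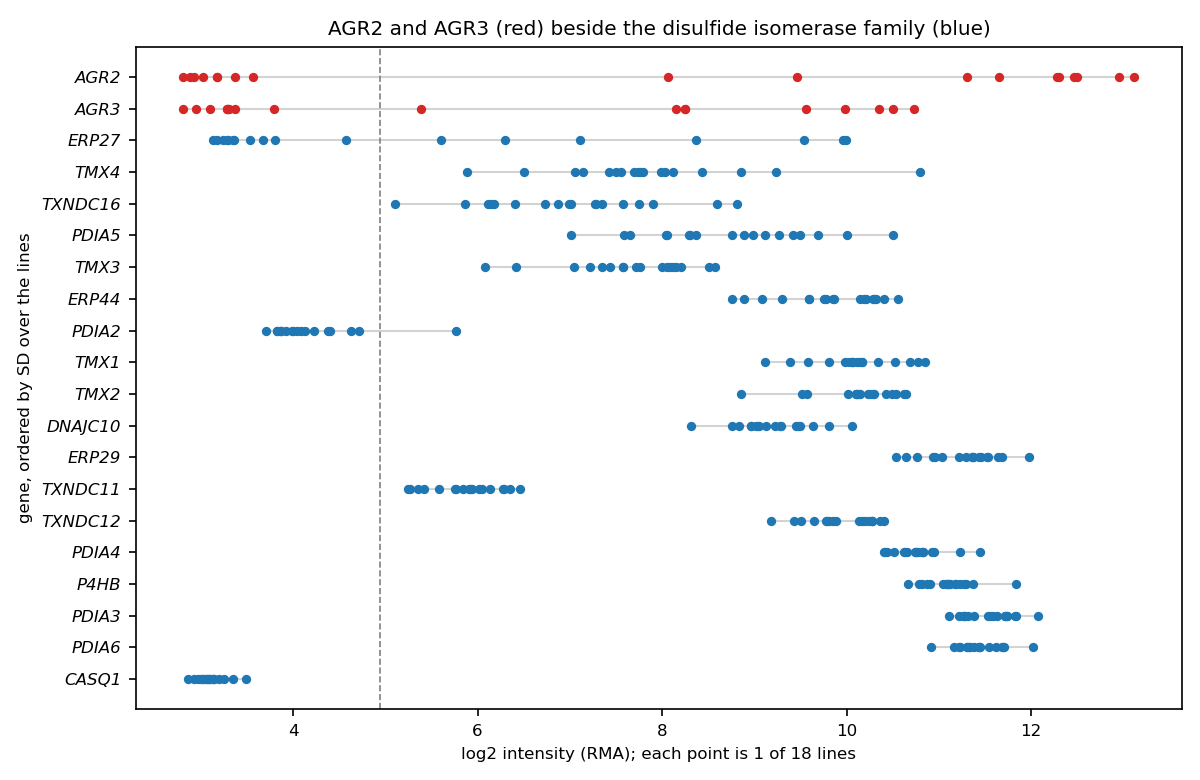
Log2 intensity of AGR2 and AGR3 (red) and of 18 relatives of the disulfide isomerase family (blue), each point 1 of 18 lines, ordered by SD, with 4.94 dashed. AGR2 and AGR3 split into low and high lines, whereas P4HB stays between 10.66 and 11.84; positions of different genes along the axis are not comparable as amounts.

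TFF3, the trefoil peptide of intestinal goblet cells, ran from 3.35 (CAR1) through a median of 9.12 to 12.54 (LS513). It had the same 2 clusters as AGR2, with 8 lines at or under 4.07 and 10 lines from 8.45 (RCM1) upward. TFF1, the trefoil peptide best known from the stomach surface, ran from 3.34 (CAR1) through a median of 4.46 to 10.82 (KM12). KM12, LS513, SW1463 and LS180 held TFF1 at 10.13 or above, CL40 at 8.56 and SW948 at 7.50. NCIH716, SNUC1 and HT55 had TFF1 at 5.40, 5.58 and 5.14, although TFF3 was at 10.05 or above in all 3. A high TFF3 was thus found with TFF1 anywhere from background (RCM1, 3.44) to its upper end.

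The third trefoil gene, TFF2, lies between TFF3 and TFF1 on chromosome 21 and was high in fewer lines. It exceeded 4.94 in 7 lines, all among the 10 of TFF3 and 6 of them among the 9 of TFF1, with 9.93 in CL40 and 9.35 in LS513 at the top. TFF2 was 7.65 in RCM1, where TFF1 was at 3.44, and 3.42 in NCIH716, its lowest value, although TFF3 was high there. Beyond the trefoil genes, ABCG1 on the TFF3 side exceeded 4.94 in 4 lines and TMPRSS3 on the TFF1 side in 6, each with at least 1 line outside the 10 of TFF3. RSPH1, further on past TFF1, exceeded it in 8 lines, all among those 10, with 8.74 in LS513 at the top and 3.70 in NCIH716. How common such an overlap is among all genes was not counted. On chromosome 7, TSPAN13, next to AGR2, exceeded 4.94 in all 18 lines, between 5.28 (RKO) and 12.03 (NCIH716), and AHR, next to AGR3, did so in 15.

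**Figure D3:**
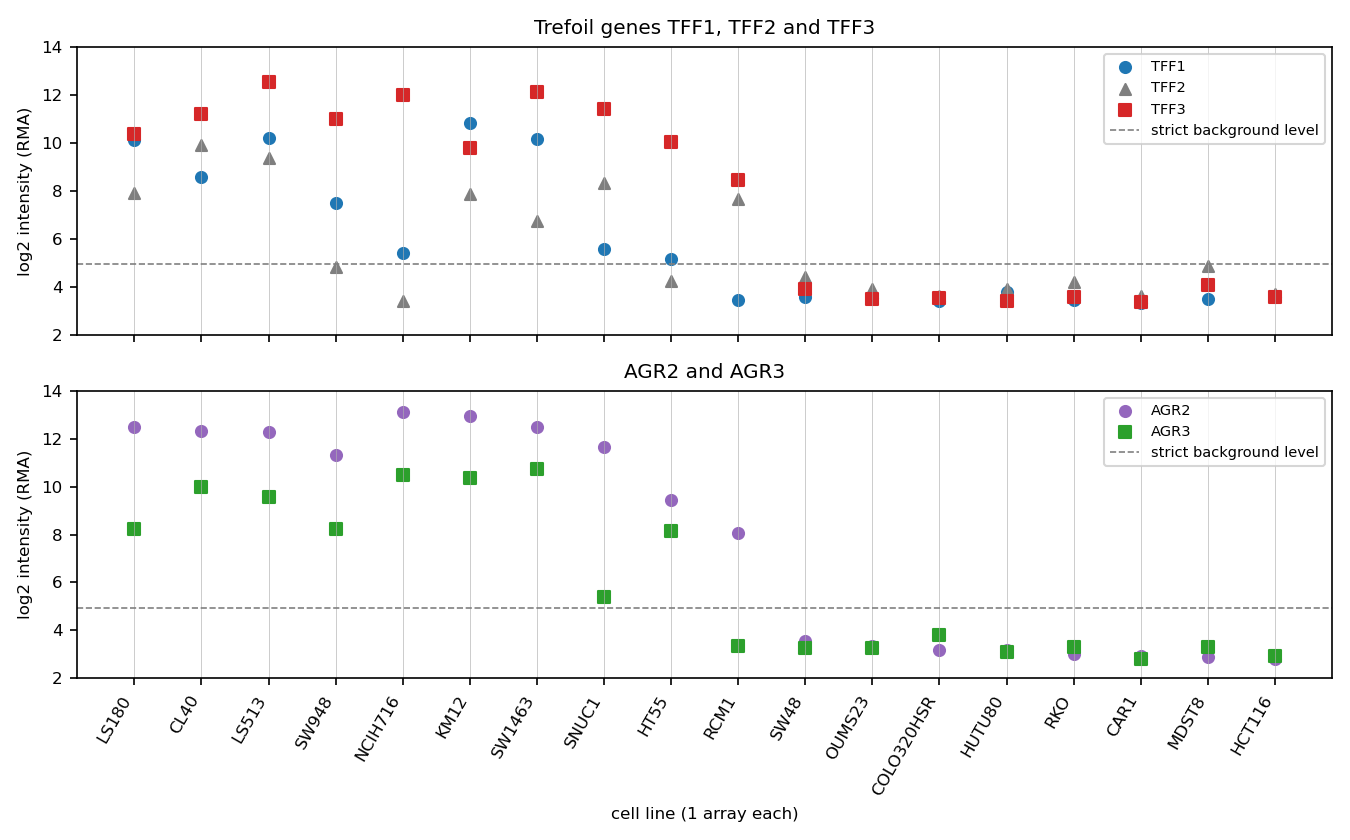
Log2 intensity by line (1 array each, lines in the order of the plot of all 10 genes) of the 3 trefoil genes of chromosome 21 (top) and of AGR2 and AGR3 of chromosome 7 (bottom), with 4.94 dashed. In RCM1, TFF3 and TFF2 are above the dashed line and TFF1 is not, and AGR2 is above it and AGR3 is not.

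MUC2, the gel-forming mucin that builds intestinal mucus, was the product detected in the fewest lines. It ran from 2.73 (CAR1) through a median of 3.24 to 7.79 (CL40). It was 6.03 in LS513, 5.96 in LS180 and 5.64 in SW948. NCIH716 (4.82) and SW1463 (4.49) were near background, and the other 12 lines were under 3.89. Its neighbours in the mucin cluster of chromosome 11 were restricted too. MUC6 exceeded 4.94 in 1 line (LS180, 6.17), MUC5AC in 2 (LS180, 6.78, and NCIH716, 6.25) and MUC5B in 2 (SW1463 and LS180, each 5.08). LS180 alone had MUC2, MUC5AC, MUC5B and MUC6 above 4.94.

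FCGBP, the protein that cross-links with MUC2 in mucus, ran from 2.87 (RCM1) through a median of 3.54 to 11.10 in NCIH716. SW948 followed with 7.85, LS513 with 7.59, LS180 with 7.21 and CL40 with 6.19. SW1463 (4.45) and KM12 (4.27) were near background and 11 lines were under 3.89. Each of the 4 lines with MUC2 above 4.94 had FCGBP above it. NCIH716, the line with the highest FCGBP, had MUC2 at 4.82.

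SPINK4, a small protease inhibitor secreted by goblet cells, ran from 3.0 (RKO) through a median of 3.62 to 12.20 (LS513). KM12, NCIH716, SW1463, LS180 and SW948 followed, from 11.88 down to 10.08, and SNUC1 (6.13) and CL40 (5.69) were lower. The gap between SNUC1 and SW948 set 6 lines apart from the other 12. REG4, a secreted lectin of the regenerating family, ran from 3.22 (HUTU80) through a median of 3.71 to 11.97 (KM12). LS513 was at 10.43, LS180 at 10.13, CL40 at 9.22, SW948 at 8.14, SW1463 at 6.57 and NCIH716 at 5.35. CL40 was high in REG4 and low among the SPINK4 lines, and NCIH716 the reverse. The brighter pair of the 3 REG4 probe sets correlated at r = 0.99 over 18 lines, and the remaining one exceeded 4.94 in 2 lines. NCIH716 read 5.35, 4.25 and 3.01 on the 3 probe sets, so the call of REG4 in NCIH716 rests on 1 of them.

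The regulators exceeded 4.94 in fewer lines than any product, SPDEF in 2 and ATOH1 in 1, against 4 for MUC2. This holds at 4.94 only, as SPDEF was above 3.89 in all 18 lines. ATOH1, the bHLH factor that starts the secretory lineage, was 8.56 in NCIH716. In the other 17 lines it lay between 3.21 (CAR1) and 4.16 (COLO320HSR), with a median over all lines of 3.69, and only COLO320HSR, SW948 (4.0) and NCIH716 exceeded 3.89. SPDEF, the ETS factor of goblet cell maturation, was 7.85 in NCIH716 and 5.84 in LS180. Its other 16 values lay between 4.03 (SW1463) and 4.92 (SW948), with a median over all lines of 4.48. Thus 9 of the 10 lines with AGR2 and TFF3 had ATOH1 near or under background, and 8 of the 10 had SPDEF near background. KM12, with AGR2 at 12.95, SPINK4 at 11.88 and REG4 at 11.97, had SPDEF at 4.60 and ATOH1 at 3.72, inside the range of the 8 lines with no product (SPDEF 4.12 to 4.76, ATOH1 3.21 to 4.16).

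SPDEF was read by 5 probe sets, all of the class whose probes may be shared with other sequences. The brightest pair correlated at r = 0.94 over 18 lines, and NCIH716 was highest in both, with 7.85 and 8.27, followed by LS180 with 5.84 and 5.41. Another gave 5.89 and 5.04 in these 2 lines. The other two ran from 4.15 to 4.62 and from 3.40 to 3.93 and exceeded 4.94 in no line, NCIH716 included. A level near 4.5 on the brightest probe set can therefore not be told apart from signal of other sequences, and low SPDEF values carry no order.

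**Figure D4:**
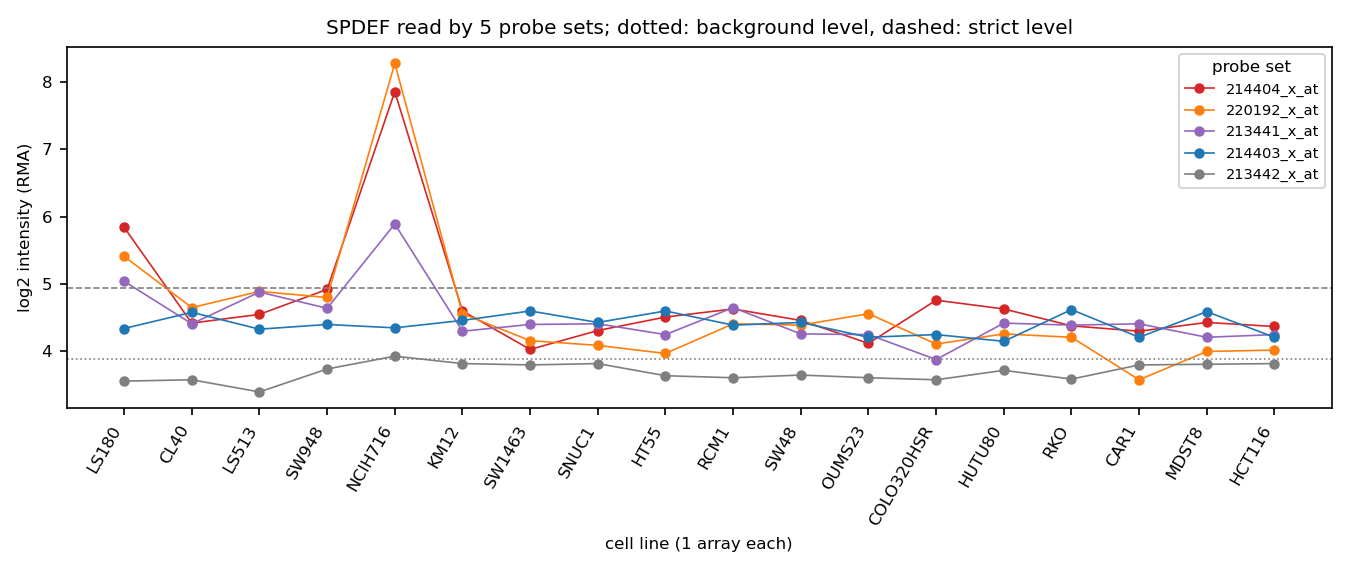
Log2 intensity of the 5 SPDEF probe sets by line (1 array each, lines in the order of the plot of all 10 genes; dotted 3.89, dashed 4.94). NCIH716 and LS180 exceed 4.94 on 3 probe sets, and the probe sets shown in blue and grey stay between 3.40 and 4.62.

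Whether the products follow the regulators was asked of every gene with limma, as the slope of its log2 value on the log2 value of SPDEF or ATOH1 over the 18 lines. FCGBP was the 1 product of 8 that passed for either regulator. Its slope was 2.08 log2 units per unit of SPDEF (SE 0.38, adjusted p = 0.00281) and 1.44 per unit of ATOH1 (SE 0.31, adjusted p = 0.0108). Over all 15210 genes tested, 1.58% had a positive and 0.21% a negative slope on SPDEF that passed, and 2.09% and 0.408% did so for ATOH1. Both calls for FCGBP rest on NCIH716: without it the slopes were 2.29 (adjusted p = 0.999) and 3.05 (adjusted p = 0.586). Within the 8 lines in RPMI-1640 they were 2.09 (adjusted p = 0.0692) and 1.46 (adjusted p = 0.0553), and within the 10 lines in DMEM/F-12 2.35 (adjusted p = 1) and 4.83 (adjusted p = 0.587). With the mean of all SPDEF probe sets as the regulator, the FCGBP slope was 4.26 (adjusted p = 0.000224). The count over all genes rests on NCIH716 too, with 273 genes called for SPDEF and 10 without NCIH716, and 380 called for ATOH1 and 0 without it (1438 at an unadjusted p under 0.05 in limma).

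The other 7 products did not pass. Their slopes on SPDEF were 1.99 for AGR2 (SE 1.12, adjusted p = 0.77), 1.80 for SPINK4 (SE 0.88, adjusted p = 0.641), 1.5 for TFF3 (SE 0.97, adjusted p = 0.836) and 1.41 for AGR3 (SE 0.80, adjusted p = 0.77). REG4 had 0.60 (SE 0.80), MUC2 0.47 (SE 0.37) and TFF1 0.35 (SE 0.77), with adjusted p-values of 0.953, 0.9 and 0.968. Without NCIH716 the slopes on SPDEF were 3.32 for REG4, 3.16 for AGR2, 2.86 for SPINK4, 2.35 for TFF1, 1.96 for TFF3, 1.45 for AGR3 and 1.35 for MUC2, each with an adjusted p of 0.999. SPDEF then spans 4.03 to 5.84, with LS180 alone above 4.94, so the size of these slopes carries little meaning. On ATOH1 the slopes ran from 0.08 for TFF1 (SE 0.58) to 1.36 for AGR2 (SE 0.84), with adjusted p-values from 0.617 for SPINK4 to 0.987 for TFF1. Without NCIH716 they ran from 1.31 for MUC2 to 7.06 for AGR2, with SPINK4 at 6.96, TFF3 at 6.12, AGR3 at 5.05, TFF1 at 4.64 and REG4 at 4.41, and adjusted p-values from 0.514 (SPINK4) to 0.842 (MUC2). ATOH1 then spans 3.21 to 4.16, near or under background, so the size of these slopes carries little meaning. The same holds for the FCGBP slopes without NCIH716. These errors are wide, and a p that misses the threshold does not show that a product and a regulator are unrelated.

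Correlations were taken over the 16 pairs of a regulator and a product. FCGBP and SPDEF correlated at r = 0.80 (permutation p = 0.00135) and rho = 0.46 (permutation p = 0.0554) over 18 lines. Without NCIH716 and LS180 r was 0.37, but SPDEF was then 4.03 to 4.92, near background, so this carries no weight. FCGBP and ATOH1 correlated at r = 0.74 (permutation p = 0.0026) and rho = 0.58 (permutation p = 0.0132). Without NCIH716 and COLO320HSR r was 0.60, but nearly all ATOH1 values left are under background, so this value carries no weight. For TFF1 the correlation with ATOH1 was r = 0.03 (permutation p = 0.939) and rho = 0.48 (permutation p = 0.047), and for REG4 r = 0.05 (permutation p = 0.95) and rho = 0.49 (permutation p = 0.0426). These rank values, too, lean on ATOH1 levels at background. AGR2, AGR3, TFF3 and SPINK4 fell into clusters, so their correlations are given within a cluster only. Their slopes above pool both clusters and so also reflect the split between them. In the 10 lines with high AGR2, its correlation with SPDEF was r = 0.32 (permutation p = 0.323). Without NCIH716 and LS180 it was r = -0.30, again on SPDEF values near background, so it carries no weight. In the 10 lines with high TFF3 the correlation with SPDEF was r = 0.16 (permutation p = 0.67). In the 8 lines with high AGR3 it was r = 0.08 (exact permutation p = 0.92), and in the 6 with high SPINK4 r = -0.19 (exact permutation p = 0.782). These tests are two-sided and unadjusted, and the p-values adjusted over all genes are those of the slopes.

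**Figure D5:**
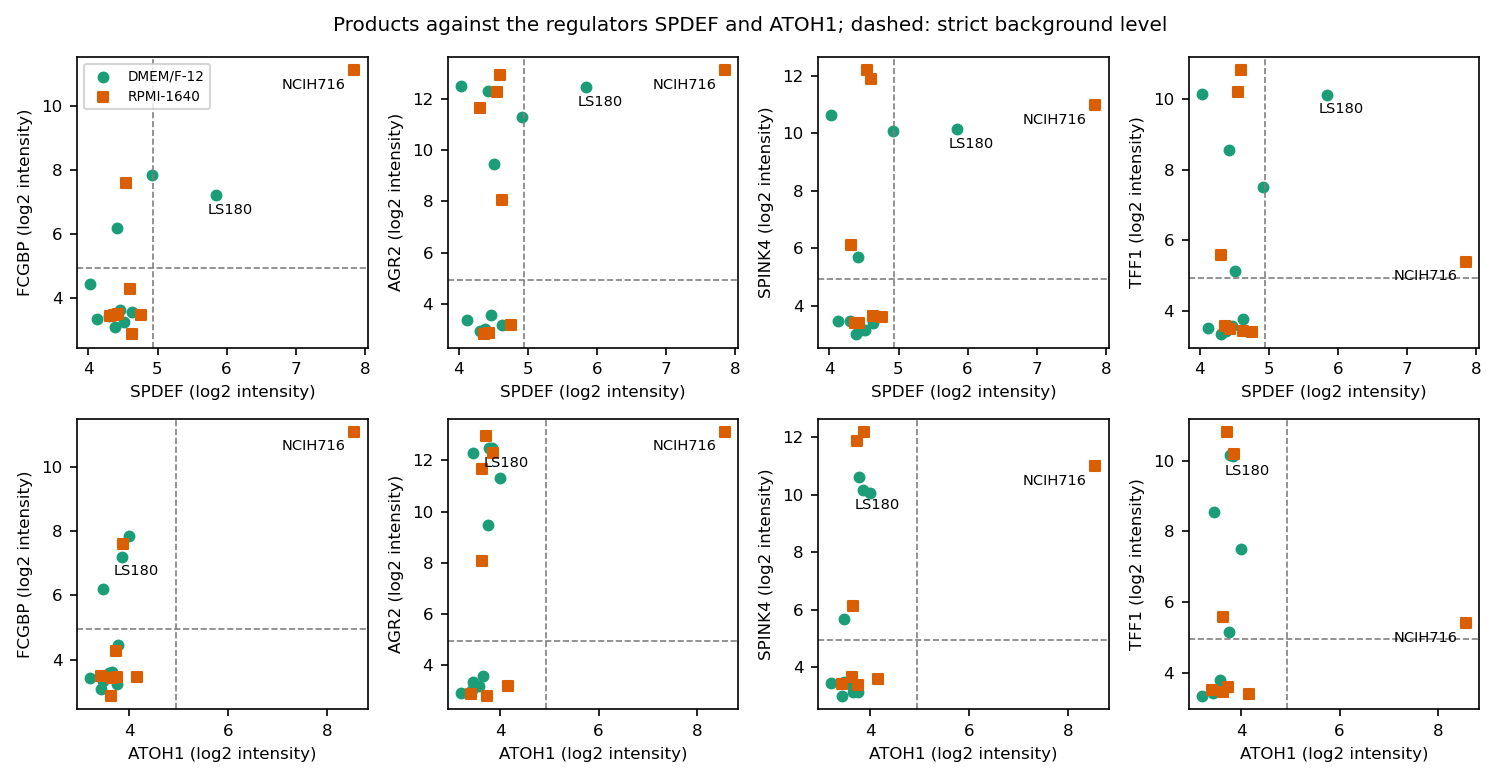
Log2 intensity of 4 products (vertical) against SPDEF (top) and ATOH1 (bottom), each point 1 of 18 lines, circles DMEM/F-12 and squares RPMI-1640, with 4.94 dashed on both axes. NCIH716 stands alone at the right of each panel, and high and low lines of AGR2 and SPINK4 lie above each other at the same regulator level.

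Other goblet cell products were taken as a list of 20 genes, of which 18 were measured and 16 exceeded 4.94 in some line. In the limma slopes on SPDEF, 5 of 17 tested rose with it and 0 fell (B3GNT6, BEST2, CLCA1, HEPACAM2 and MUC5AC). On ATOH1 4 of 17 rose and 0 fell, MUC5AC being the one that did not pass. Over all genes tested, 1.58% rose with SPDEF and 2.09% with ATOH1. BEST2 exceeded 4.94 in no line, with 4.87 in NCIH716 as its highest value. The median slope of the list on SPDEF was 0.27, against -0.018 over all genes. HEPACAM2, a surface protein of secretory cells, was 11.49 in NCIH716, 5.99 in LS180 and 4.86 in SW948, and its slope on SPDEF was 2.34 (SE 0.15, adjusted p = 7.66e-08). CLCA1, a secreted goblet cell protease, was 9.34 in NCIH716 and at or under 3.48 in every other line. B3GNT6, which builds the core 3 sugar of mucins, was above 4.94 in NCIH716 alone, at 6.98. Without NCIH716, HEPACAM2 and MUC5AC of this list passed for SPDEF and 0 of 17 for ATOH1. LS180 was then the only line with SPDEF above 4.94 and held the highest HEPACAM2 (5.99) and MUC5AC (6.78). With LS180 left out too, 0 genes passed for SPDEF in limma, so both calls lean on LS180. ST6GALNAC1, the sialyl-Tn synthase, exceeded 4.94 in 8 lines and reached 9.99 in LS180, and SYTL2, a vesicle protein, did so in 15 lines.

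NCIH716 also carried markers of another secretory cell, the enteroendocrine cell. Of 9 measured markers, 6 exceeded 4.94 in NCIH716 and 0 to 2 in each other line. CHGB, a granule protein, was 11.44 there and INSM1, an endocrine factor, 9.43. GCG, the glucagon precursor, was 12.97 in NCIH716 and 12.94 in HUTU80, and at or under 3.99 in the other 16 lines. In the slopes 4 of 7 tested rose with SPDEF and 5 of 7 with ATOH1, against 1.58% and 2.09% of all genes tested. Without NCIH716 0 of 7 passed for either. ATOH1 was high in this line alone, and the part of the endocrine markers in the FCGBP slopes was not tested. Of the enterocyte list 1 of 8 tested rose with SPDEF (GUCA2B, 11.65 in NCIH716) and 2 with ATOH1 (GUCA2B and SI). Of 6 tested Paneth, 6 crypt stem cell, 11 gut epithelium and 5 leukocyte genes, 0 passed for either regulator. COL3A1, 1 of 6 tested genes of fibroblasts and endothelium, passed for both, as it was 10.57 in NCIH716. Of 2 tuft cell genes tested, PTGS1 passed for ATOH1. Of the disulfide isomerases 1 of 17 rose with each regulator (PDIA2), and TMX2 fell with ATOH1. Without NCIH716, 0 genes of the enterocyte, fibroblast and endothelial, tuft and disulfide isomerase lists passed for either regulator in limma.

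Other factors of the secretory lineage were taken as a list of 16, with 15 measured. Of the 13 tested, 0 passed for SPDEF and 0 for ATOH1. The 4 with the largest SD were SOX9, a factor of crypt progenitors and Paneth cells, ELF3, an epithelial ETS factor, HES1, the Notch target that represses ATOH1, and CDX1, an intestinal homeobox factor. SOX9 and ELF3 exceeded 4.94 in 14 lines each, HES1 in 17 and CDX1 in 9. All 9 lines with CDX1 were among the 10 with AGR2, but the share of all genes with lines only among these 10 was not taken. XBP1, which enlarges the secretory apparatus, exceeded 4.94 in all 18 lines, between 8.86 and 11.01. GFI1, which acts after ATOH1 in the secretory lineage, exceeded 4.94 in 1 line (RKO, 5.11).

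The forkhead factor FOXA2 exceeded 4.94 in exactly the 10 lines of AGR2 and TFF3. This was seen in the values and not sought by rule. FOXA2 was 8.26 in SW1463, 8.21 in NCIH716, 8.17 in SW948, 7.65 in KM12, 6.91 in LS513, 6.90 in HT55, 6.49 in RCM1, 6.39 in SNUC1, 6.07 in LS180 and 5.79 in CL40. In the other 8 lines it was at or under 4.56 (MDST8). A second FOXA2 probe set exceeded 4.94 in the same 10 lines, and the remaining one in 0. FOXA3 exceeded it in 10 lines, 9 of them lines of AGR2, and FOXA1 in 9, 6 of them lines of AGR2. Of 6196 genes above 4.94 in some but not all lines, 14 (0.226%) had exactly this set of lines. Besides AGR2, TFF3 and FOXA2 they were the epithelial genes VIL1, LGALS4, GPA33, MUC13 and CEACAM6, and C9orf152, CLRN3, GCNT3, GPX2, SGK2 and TIMP4. VIL1, LGALS4 and GPA33 are in the list of gut epithelium markers, so the lines with AGR2 and TFF3 were also the lines with these markers. CREB3L1, a factor of the secretory pathway also picked after its values were seen, exceeded 4.94 in 4 lines (NCIH716, KM12, LS180 and LS513), all within the 10. How many of all genes have lines only within the 10 was not counted.

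The genes whose values ran most like each product over the 18 lines were found by Pearson correlation among 4369 genes that exceeded 3.89 in at least 3 lines and ranged over at least 3 log2 units, and are given as a description. The lines share them, and r is large for any 2 genes that split the same lines. MUC13, a membrane mucin, was first for both AGR2 (r = 0.96) and TFF3 (r = 0.98). AGR2 was followed by DDC and TOX3 and TFF3 by CLRN3 and CDH17. AGR3 was most like RASSF6 (r = 0.92), then MCTP2 and TIMP4. TFF1 (r = 0.95) and REG4 (r = 0.89) were both most like SMIM31, which exceeded 4.94 in 6 lines. TFF1 was then most like ST6GALNAC1 and LCK, and REG4 most like MARCHF3 and PRSS1. MUC2 was most like ALOX5, the arachidonate 5-lipoxygenase (r = 0.95), which was also highest in CL40, and then DEGS2 and MMP28. SPINK4 was most like DEGS2 (r = 0.84), LYZ and TIMP4. FCGBP was most like HEPACAM2 (r = 0.87), SBSPON and LINC00261. For SPDEF (HEPACAM2, r = 0.97, then FMOD and UGT2B15) and ATOH1 (CHGB, PRPH and INSM1, r = 0.96 to 0.97) every gene named was highest in NCIH716, and the rank correlations were between 0.04 and 0.53.

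The labels give culture medium as the 1 condition that differed. With limma, 0 of 15211 genes differed between the 10 DMEM/F-12 lines and the 8 RPMI-1640 lines (0% called, and 396 genes at an unadjusted p under 0.05), and so did 0 of the 10 genes described here. AGR2 was 7.41 ± 4.51 (SD, n = 10) in DMEM/F-12 and 8.37 ± 4.75 (SD, n = 8) in RPMI-1640, a difference of -0.96 (SE 2.05, adjusted p = 0.999). SPINK4 was 5.62 ± 3.32 (SD, n = 10) and 6.90 ± 4.07 (SD, n = 8), a difference of -1.29 (SE 1.63, adjusted p = 0.999). MUC2 was 4.26 ± 1.68 (SD, n = 10) and 3.77 ± 1.11 (SD, n = 8), a difference of 0.49 (SE 0.65, adjusted p = 0.999). Each medium held lines with and without the products: AGR2 exceeded 4.94 in 5 of the 10 DMEM/F-12 lines and in 5 of the 8 RPMI-1640 lines. Each line was grown in 1 medium, so line and medium cannot be told apart.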

How the data were processed

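Total RNA of 18 cell lines, 1 array each, was measured. Per the submitters' processing notes, the authors used RMA (affy package), and the deposited unit is the log2 intensity. Tool versions: not given in the sources used here. Values ran from 2.306 to 13.71 and were used without further normalization. RMA brings the arrays to a like distribution and compresses differences near background.

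Of 54613 probe sets, 40914 had 1 gene symbol, 864 several and 12835 none in the platform annotation. Of those with 1, 40858 had an Entrez ID in the RefSeq table of GRCh38.p14, which gave current symbols, gene order and promoter sequences. For each gene the brightest probe set by mean was used. Background percentiles came from 77 probe sets of 62 measured genes (of 68 listed) of other tissues, a choice from general knowledge that was not checked gene by gene.

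Slopes and the comparison of media were fitted with limma 3.58.1 (lmFit, eBayes with trend) in R 4.3.3 on genes above 3.89 in at least 1 line, with Benjamini-Hochberg adjustment over all genes and a threshold of 0.05. The slope fits were also run on simulated data, with known slopes planted in independent normal noise. That check does not bear on calls that rest on 1 line. Pairs were tested in Python 3.11.15 with scipy 1.17.1 by 100000 permutations, enumerated exactly under 10 lines. Clusters were lines split by a gap of over 1 part in 3 of a gene's range that left 3 or more lines on both sides, and correlations of clustered genes were taken inside clusters of 6 or more lines. The lines are taken as independent samples, and their number limits precision.

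The members and lists were chosen with earlier results of these data known. Genes named are the 10 members, the 3 most like each member and up to 4 per list by SD; the others were chosen after their values were seen, because a result turned on them or to show a list. Alternatives covered the probe set, scaling, filter, background level, model, covariates, ranks, single media and each line left out.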

Additional observations from a re-analysis of the deposited data

Results flagged for a closer look

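Within each medium, the highest and lowest line of each of the 10 genes was compared with its nearest neighbour. This used Dixon's cut-offs for the gap as a share of the range, in 20 sets of lines. In 3 sets a line stood apart. The cut-offs are meant to set about 1 in 20 sets apart by chance. That rate assumes normally distributed values, which values at background or split into clusters are not. SPDEF was 7.85 in NCIH716, against 4.76 for the next of the 8 lines in RPMI-1640, a gap of 0.87 of the whole range. ATOH1 was 8.56 in NCIH716, against 4.16 for the next of these lines, a gap of 0.86 of the range. SPDEF was 5.84 in LS180, against 4.92 for the next of the 10 lines in DMEM/F-12, a gap of 0.51 of the range. The second-brightest SPDEF probe set read 5.41 in LS180 and 4.80 in the next of these lines, a smaller gap. The SPDEF flag in LS180 was taken on the brightest probe set only, and the rest of its range lies near background. In none of these 20 sets did a secreted product set a single line apart. Where several lines are high and several low, this rule can hardly flag 1 line, so no contrast with the regulators is drawn. NCIH716 is also the line with the highest CLCA1, HEPACAM2 and CHGB, and LS180 the line with the highest MUC5AC, MUC6 and ZG16 (7.31).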

How the results depend on the processing

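The 273 genes called for SPDEF became 33 with a filter of at least 6 lines, 9 with ATOH1 as a covariate, and 0 without the 2 lines farthest from the median, on ranks and within DMEM/F-12 (317, 585 and 357 at an unadjusted p under 0.05 in limma). Leaving out single lines gave 10 (NCIH716) to 351. The 380 for ATOH1 became 85 with that filter, 104 with SPDEF as a covariate, and 0 under the other three settings (1807, 1321 and 1230 unadjusted), with 0 to 417 over single lines left out. For both regulators the 1 product called became 0 in limma without the 2 farthest lines, with the other regulator as a covariate, on ranks and within either medium, and was 0 to 1 over single lines left out, 0 only without NCIH716. Its slope on SPDEF, 2.08, was then 2.55 without the 2 lines and 1.93 with ATOH1 as a covariate. Its slope on ATOH1, 1.44, was 5.13 without the 2 lines and 0.12 with SPDEF as a covariate. The regulator values left without the 2 lines lie near or under background, so 2.55 and 5.13 carry little meaning. In all other alternatives run FCGBP stayed the 1 product called. Slopes that turned negative, none past the threshold, were TFF1 on SPDEF (-0.085 within RPMI-1640, -0.046 to 2.35 over lines left out), REG4 on SPDEF (-0.044 within RPMI-1640), TFF1 on ATOH1 (-0.16 with values floored at background, -1.02 with SPDEF as a covariate, -0.058 within RPMI-1640, -0.0025 to 4.64 over lines left out), MUC2 on ATOH1 (-0.68 with SPDEF) and REG4 on ATOH1 (-0.008 with the mean of probe sets, -0.12 floored, -1.86 with SPDEF, -0.051 within RPMI-1640). The cause was not tested. The nesting of the products, broken in 0 lines at 4.94, was broken in 2 at 3.89, 6 at the 90th percentile, 4 at a level of 6 and 1 (NCIH716) with the mean of probe sets; these were added after seeing the data. No gene differed by medium in any alternative run. The fit within the largest cluster of a regulator was not run, because neither regulator fell into clusters. No paired analysis was possible because each line has 1 array. Signal over background limits MUC2, SPDEF and ATOH1 most.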
